A study of Mus musculus with 8 samples.

Results

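At day 7 after transfer, 1736 of 8725 cells of mouse spleen samples carried RNA of both Cd7 and Slamf6 together with RNA of Id3, Gpr55 or Nsg2, and few or no transcripts of late effector genes. These 1736 cells, called members here, made up 28.1% of MitoNegative and 7.87% of MitoPositive spleen cells. A cell counted as a member if it had at least 1 UMI (a unique molecular identifier, the count of 1 captured RNA molecule) of Cd7, at least 1 of Slamf6, at least 1 of any of Id3, Gpr55 and Nsg2, and UMIs of fewer than 2 of Cx3cr1, S1pr5, Gzma, Gzmk and Zeb2. They were taken from 18092 deposited barcodes in all, of which 16404 were kept after filters. The comparator is the 2389 spleen cells with no UMI of Cd7 and none of Slamf6, and the other 4600 spleen cells belong to neither set.

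The cells came from activated CD8 T cells of 3 donor mice that were cultured with bone marrow stromal cells (BMSCs) whose mitochondria carried the red fluorescent protein dsRed. After culture, cells that had dsRed (MitoPositive) were sorted from those that lacked it (MitoNegative), and each was transferred into B6 mice bearing B16KVP tumors, and recovered from spleen and tumor by flow cytometry at day 7, so both names give the state at transfer. Each donor gave 1 library of 4 hashtagged samples, and the 6 spleen samples used here are 1 MitoNegative and 1 MitoPositive sample per donor. All of them share the culture with BMSCs, the transfer and a tumor-bearing host. The deposited hashtag list gives the arms of a donor different recipient mice, each sample a pair of recipient codes, and so arm and recipients cannot be told apart. Neither the sex, age or strain of the donor mice nor their T cell receptor is given in the sources used here. The d7 libraries held medians of 5900.5 to 8814 UMIs per barcode.

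Spleen cells were told apart by 2 antibody hashtags, whose DNA barcodes are shown because every sample in the results rests on them. They are deposited with the data as 15 bases each, 5′ to 3′:
H1, MitoPositive spleen: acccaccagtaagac
H2, MitoNegative spleen: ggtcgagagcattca

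Cd7 and Slamf6 are surface proteins of T and natural killer (NK) cells, and Slamf6 belongs to the SLAM family, whose members signal through the adaptor SAP, encoded by Sh2d1a. Id3 is a DNA-binding inhibitor that restrains E proteins and is known in CD8 T cells from long-lived memory precursors, whereas Id2, its relative, is known from effector cells. Tcf7 encodes TCF-1, the factor that marks stem-like and central memory CD8 T cells and that keeps Slamf6-bearing cells able to renew themselves in chronic infection and tumors. Gpr55 is a receptor for lipids, and Nsg2 was first described in neurons. Cx3cr1, S1pr5, Gzma, Gzmk and Zeb2 are known from cytotoxic and terminally differentiated T cells.

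On GRCm38 with GENCODE M21, the 5 genes that admit a cell lie at chr11:121036747-121039418 on the minus strand (Cd7), chr1:171917515-171953170 on the plus strand (Slamf6), chr4:136143497-136145755 on the plus strand (Id3), chr1:85938318-85961007 on the minus strand (Gpr55) and chr11:32000463-32059202 on the plus strand (Nsg2). The values of these genes chose the members, so they are given as a description without a test. All levels below are CPM, the UMIs of a gene per 1000000 UMIs summed over the cells of a population in 1 sample. Values are listed for donors 1, 2 and 3 of the MitoNegative arm and then donors 1 and 2 of the MitoPositive arm. The MitoPositive sample of donor 3 held 4 members with 30099 UMIs together and was left out of all sums.

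Cd7 stood at 415, 395 and 384 CPM in MitoNegative and at 257 and 323 CPM in MitoPositive members, and Slamf6 at 233, 269.8 and 256 and at 322 and 287 CPM. Cd7 was highest in the MitoNegative samples and Slamf6 in the MitoPositive ones. Id3 was found in 60.8% of members and 15.1% of comparator cells, at 151, 190.5 and 169 CPM in MitoNegative and 185 and 251 CPM in MitoPositive members. Gpr55 was found in 39.1% against 7.70%, at 70.5, 67.5 and 88.8 and 35 and 45.3 CPM, and Nsg2 in 56.0% against 14.6%, at 97.6, 114 and 131 and 139 and 155 CPM. Both MitoPositive samples were below every MitoNegative sample for Gpr55 and above every one for Nsg2. The share of members with a Gpr55 UMI followed the same order, at 43.7%, 35.1% and 45.8% against 20.8% and 24.0%.

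Many members were admitted on few molecules. Of the 1736, 934 had 1 of Id3, Gpr55 and Nsg2, 633 had 2 and 169 had all 3. A single Cd7 UMI admitted 472 members, and a single Slamf6 UMI 814. On the effector side, 1359 members had none of the 5 genes and 377 had 1 of them. Just outside the limit stood 85 cells with 2, and another 68 had 3 or more. Slamf6 was 258 CPM in the cells with none, 221 in those with 1 and 176 in the 85 cells with 2, and Cd7 was 399, 376 and 349 CPM. Gzma, the granzyme A gene, was at 0 by rule in the first, 147 CPM in the second and 554 CPM in the 85 cells. Another 631 spleen cells passed the rule on Cd7, Slamf6 and effector genes but lacked Id3, Gpr55 and Nsg2.

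The 3 ways of entry gave cells that were unlike each other. Among members with Nsg2 as the one entry gene (344 cells), Lef1, the partner of TCF-1, was at 153 CPM, against 58.4 CPM in the 378 cells with Id3 alone and 43.3 CPM in the 212 with Gpr55 alone. Bach2, a repressor of effector genes, was at 125, 54.7 and 80.1 CPM in the same order. Tcf7 varied less, at 298, 214 and 240 CPM. Mki67, a marker of dividing cells, was highest in the Id3 cells at 193 CPM, against 122 with Nsg2 alone and 135 with Gpr55 alone. These are pooled values over all samples without a test, and the cells with Nsg2 alone held fewer MitoNegative cells (78.2%) than those with Id3 (82.5%) or Gpr55 (91.98%). The 631 cells that lacked Id3, Gpr55 and Nsg2 lay within the range of the members' ways of entry for Tcf7 (239 CPM), Lef1 (97.2), Bach2 (107), Trdc (125, the T cell receptor δ constant region) and Slamf6 (288), so these levels do not set members apart from them.

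Members were T cells by their markers: 1735 of 1736 had a UMI of Cd3d, Cd3e or Cd3g, against 2236 of 2389 comparator cells. The comparator also held cells of other kinds. Summed over 12 myeloid genes, members ranged from 112 to 300 CPM over the 5 samples and the comparator from 920 to 11569 CPM. For 10 B cell genes the ranges were 143 to 277 against 308 to 14948 CPM, and for 8 NK genes 37.4 to 98.4 against 764 to 2293 CPM, with Ncr1 and Klra8 at 0 in all members. The 8 NK genes include Gzma, which the rule limits in members. The 10 genes of γδ and innate-like T cells summed to 111 to 287 CPM in members and 71.6 to 230 in the comparator, with Sox13 and Il23r at 0 in members. Members also had more UMIs per cell, with a median of 7613 UMIs against 4885 in the comparator, and a rule that asks for UMIs of 3 genes admits deep cells more readily. Most results of members against the comparator are therefore given in 2 forms, over all cells and over a matched subset. The matched subset was chosen after seeing the data and took cells with a Cd3 UMI, comparator cells under the same effector limit, and equal numbers of both from each bin of UMIs: 671 members and 671 comparator cells in 5 samples. A further form thinned every cell to 3000 UMIs before the rule was applied.

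The share of members was higher in every MitoNegative than in every MitoPositive spleen sample. Among MitoNegative spleen cells, 981 of 3429 (28.6%, 95% Wilson interval 27.1 to 30.1), 322 of 1237 (26.0%, 23.7 to 28.5) and 166 of 558 (29.7%, 26.1 to 33.7) were members, a mean of 28.1% ± 1.90 (SD, n = 3). Among MitoPositive spleen cells, 96 of 1148 (8.36%, 6.90 to 10.1), 167 of 2303 (7.25%, 6.26 to 8.38) and 4 of 50 (8%, 3.15 to 18.8) were, a mean of 7.87% ± 0.567 (SD, n = 3). The intervals cover counting error only. Since the members were picked by expression with results of these samples known, the shares are a description and no test is given.

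Depth moved the level of the share but not the order of the arms. All spleen cells of a sample had medians of 5791 to 7224.5 UMIs in the MitoNegative and 5288 to 6193.5 in the MitoPositive arm. With every cell thinned to 3000 UMIs before the rule, 8.42%, 10.1% and 9.80% of MitoNegative and 2.17%, 2.72% and 2.08% of MitoPositive cells passed, means of 9.45% ± 0.912 and 2.32% ± 0.343 (SD, n = 3 each). Thinning left out 375, 83 and 17 MitoNegative and 135, 279 and 2 MitoPositive cells below that depth. The comparator ran the other way, at 13.2%, 17.7% and 21.7% of MitoNegative and 44.9%, 45.6% and 58.0% of MitoPositive spleen cells.

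Within each arm, cells passing the same gene rule were rarer outside the spleen. Across arms the samples overlapped, with culture MitoNegative cells of donor 2 at 7.53% and spleen MitoPositive cells of donor 2 at 7.25%. In culture before transfer the shares were 6.17% ± 1.64 of MitoNegative and 3.12% ± 1.27 of MitoPositive cells (SD, n = 3 each). In the tumor they were 1.79% ± 1.35 and 0.888% ± 0.284, in all 18 cells, although tumor cells were deeper, with sample medians of 10067 to 21893.5 UMIs. As a measure of free RNA, 0 of 56 d7 barcodes with myeloid markers passed the rule, which allows a share of up to 5.36%, at a median of 1336 UMIs, far below the members' depth.

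**Figure D1:**
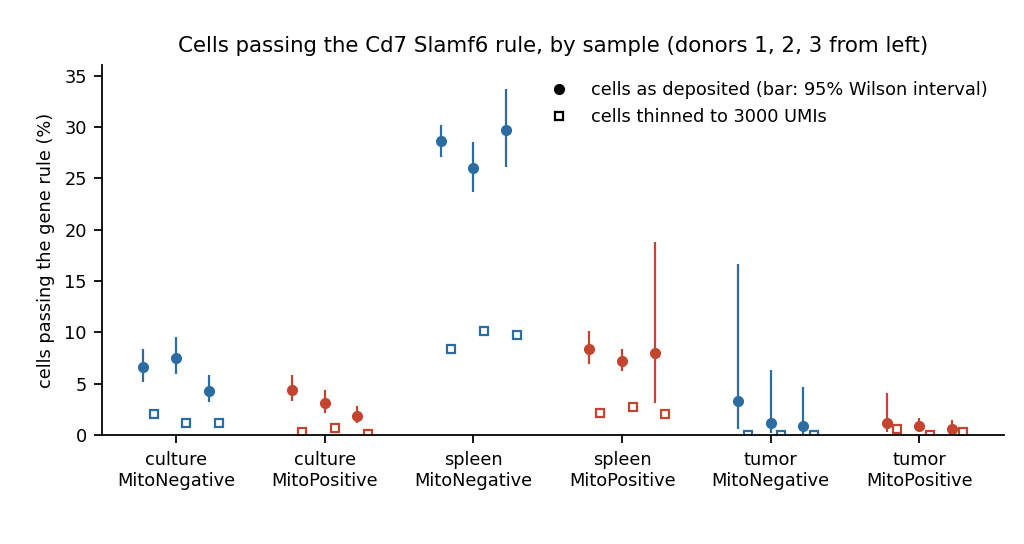
Percentage of cells passing the gene rule in each hashtagged sample, with filled circles for cells as deposited (bars: 95% Wilson intervals) and open squares for cells thinned to 3000 UMIs. The MitoNegative spleen samples sit between 26.0% and 29.7%, above all others, and at 8.42% to 10.1% after thinning.

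The first comparison asked which other genes set members apart from comparator cells of the same sample. Of 9178 genes tested outside the rule, 628 (6.84%) were higher and 397 (4.33%) were lower in members at an adjusted p under 0.05 (edgeR quasi-likelihood test with sample as a block, 5 samples), 11.2% in all. Genes that go with the rule's 10 genes from cell to cell had to differ, so these tests describe the gated sets and do not show a separate cell type. In the matched subset 186 of 7152 genes were higher (2.6%) and 169 lower (2.36%), 4.96% in all. Of the 1025 calls, 842 could be tested there and 217 were called again in the same direction. Thinned cells gave 25 higher (0.361%) and 37 lower (0.534%) of 6930 genes, 0.895% in all. Equal numbers per UMI bin, without the other 2 conditions, gave 115 higher (1.49%) and 140 lower (1.81%), 3.3% in all, and a Cd3 UMI in both populations as the one condition gave 625 higher (6.85%) and 339 lower (3.72%), 10.6% in all. The count over all cells was 493 without donor 1, 206 without donor 2 and 394 in the MitoNegative samples alone. Members differed far less from the other 4600 spleen cells, with 36 higher (0.363%) and 55 lower (0.554%) of 9930 genes, 0.916% in all. Among the named genes called over all cells, 7 higher and 13 lower ones were also called in the matched subset and in thinned cells. Of these, 2 higher genes (Tcf7 and Ifi27l2a) and 9 lower ones were also called against the other 4600 spleen cells. Icos, Il7r, Nt5e, S100a4 and Sh2d1a were not, so their differences below are from the comparator only.

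The largest changes over all cells lay in genes of dividing cells and in genes of other cell types. The 15 leading higher genes, at log2 fold changes of 1.43 to 2.11, serve chromatin, DNA replication and mitosis, among them Hist1h2ae, Cenpm, Hist1h3c, Hist1h2ap, Pclaf, Hist1h1b, Cdkn3, Ccna2, Aurkb, Ccnb2, Asf1b, Esco2, Stmn1 and Cdc20. The 15 leading lower genes, from -8.42 to -4.36, were mostly those of neutrophils, macrophages and B cells: Retnlg, S100a9, S100a8, Lyz2, Slc8a1, Il1b, Igkc, Wfdc17, Gcnt2, Tnfaip2, Mt1, Ly6d, Bank1, H2-Ab1 and Spi1. All 11 myeloid markers tested and 6 of 8 B cell markers were lower in members over all cells, and 0 of 4 (3 at an unadjusted p under 0.05, edgeR) and 1 of 3 in the matched subset, where the other markers were too low to test. There the leading genes were others: Cd9, Hrh4, Smpdl3b, Trdc, Gpm6b, Serp2, Rora, Ccnb2, Zbtb32, Ccng2, Timp2, Lgals3, Cenpa, Nt5e and Fut7 were higher by 0.93 to 1.34. Klre1, Cd74, Il2ra, Ifngas1, Art2b, Pde2a, Lilr4b, Lrrk1, Entpd1, Tyrobp, Fgl2, Apoe, Tent5a, Coro2a and Socs2 were lower, from -2.59 to -1.29. These lower genes still held Cd74 and Tyrobp, of the B cell and NK marker lists. All 4 myeloid markers tested there were below 0 (median -0.98). The part of RNA from other cell types in these lower genes was not tested.

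List counts here and below stand beside the shares of all genes tested. These were 6.84% higher and 4.33% lower over all cells, and 2.6% and 2.36% in the matched subset. The transcription factors of stem-like and memory T cells did not move together. Of 14 tested, 1 was higher and 4 lower over all cells (median log2 fold change -0.07, against 0.01 over all genes). In the matched subset 3 were higher and 4 lower of 12 (median -0.18). The list also holds Id2, known from effector cells, which was among the higher genes of the matched subset. Tcf7 was 201, 248 and 326 CPM in MitoNegative and 350.4 and 305 CPM in MitoPositive members, against 155, 209 and 174 and 187 and 192 CPM in comparator cells of the same samples. It was higher in members of all 5 samples, and only the donor 1 MitoNegative members overlapped the comparator's range. Its log2 fold change was 0.66 ± 0.09 (SE, adjusted p = 0.00061) over all cells, 0.36 ± 0.08 (SE, adjusted p = 0.0054) in the matched subset, 0.73 ± 0.11 (SE, adjusted p = 7.8e-05) in thinned cells and 0.30 ± 0.05 (SE, adjusted p = 0.0025) against the remaining spleen cells. Of the 130 named genes called, Tcf7 was the 1 that was higher and called in each of the 20 alternatives run, 1 of which changed no sum.

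Satb1, Bach2 and Lef1, factors that go with Tcf7 in naive and memory T cells, were lower in members. Satb1, a chromatin organiser of T cells, was 83.2, 91.9 and 142 CPM in MitoNegative and 252 and 268 CPM in MitoPositive members, against 177, 248 and 329.8 and 356 and 379 CPM in the comparator. It was lower in members of every sample, although the MitoPositive members overlapped the MitoNegative comparator. The difference was -0.88 ± 0.13 (SE, adjusted p = 0.00069) over all cells, -1.24 ± 0.11 (SE, adjusted p = 4.1e-08) in the matched subset and -1.05 ± 0.18 (SE, adjusted p = 0.00063) in thinned cells.

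Bach2 was 49.7, 70.9 and 132 and 137 and 141 CPM in members against 92.1, 134 and 249 and 176 and 218 CPM, a difference of -0.70 ± 0.09 (SE, adjusted p = 0.00047). It was lower in all 5 samples, at -0.82 ± 0.10 (SE, adjusted p = 3.8e-06) in the matched subset, and did not pass in thinned cells at -0.46 ± 0.16 (SE, adjusted p = 0.24). Lef1 was 51.6, 80.5 and 114 and 228 and 146 CPM in members against 112.7, 150.2 and 268 and 192 and 199.6 CPM, lower in 4 samples and higher in the MitoPositive sample of donor 1. Its difference was -0.63 ± 0.17 (SE, adjusted p = 0.031) over all cells and -0.80 ± 0.14 (SE, adjusted p = 0.00049) in the matched subset, but it did not pass without donor 2 (-0.67, adjusted p = 0.23) or in thinned cells (-0.49 ± 0.16, adjusted p = 0.21). Foxp1, a quiescence factor, differed by -0.45 ± 0.09 (SE, adjusted p = 0.0073) and by -0.62 ± 0.07 (SE, adjusted p = 1.3e-06) in the matched subset, but did not pass without donor 2 (-0.47, adjusted p = 0.11). Eomes and Tox, the factors of memory and exhausted cells, did not pass in either form (Tox 0.18 ± 0.12, adjusted p = 0.4, Eomes -0.36 ± 0.25, adjusted p = 0.43).

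Survival and homing genes were split too. Il7r, the receptor of interleukin-7 that keeps memory cells alive, was 419, 450.1 and 574 CPM in MitoNegative and 606 and 409 CPM in MitoPositive members, against 274, 332 and 229.8 and 544 and 413 CPM. Members were higher in 4 of 5 samples and the donor 2 MitoPositive values were nearly equal. The difference was 0.53 ± 0.13 (SE, adjusted p = 0.02) over all cells and 0.59 ± 0.09 (SE, adjusted p = 0.0001) in the matched subset, and it did not pass without donor 1 (0.57, adjusted p = 0.11) or donor 2 (0.70, adjusted p = 0.067).

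Bcl2, which protects T cells from apoptosis, went down: 169.6, 243 and 189 and 473 and 400.2 CPM in members against 279, 438 and 506 and 583 and 577 CPM, lower in every sample. The difference was -0.70 ± 0.13 (SE, adjusted p = 0.0033), with -0.87 ± 0.10 (SE, adjusted p = 1.2e-06) in the matched subset and a call lost without donor 2 (-0.76, adjusted p = 0.071). Ccr7, Klf2 and S1pr1, which direct lymphocytes through lymphoid organs, did not pass over all cells (Ccr7 0.38 ± 0.20, adjusted p = 0.26, Klf2 0.07 ± 0.07, adjusted p = 0.59, S1pr1 0.10 ± 0.09, adjusted p = 0.54), and Klf2 passed in the matched subset at 0.26 ± 0.06 (SE, adjusted p = 0.016).

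Of the 15 homing and survival genes tested, 4 were higher and 2 lower over all cells (median 0.24), and 5 and 2 of 14 in the matched subset (median 0.19). Itga4, an integrin chain, was 115, 164 and 93 and 235 and 195 CPM in members against 216, 349.9 and 299 and 707 and 590.1 CPM, and lower in all 5 samples. Its difference of -1.30 ± 0.11 (SE, adjusted p = 3.2e-05) over all cells did not pass in the matched subset (-0.19 ± 0.11, adjusted p = 0.39). Gpr183, which guides lymphocytes by oxysterols, was higher by 0.57 ± 0.11 (SE, adjusted p = 0.0062), and Dapl1 by 1.11 ± 0.20 (SE, adjusted p = 0.0035), and neither passed without donor 2 (0.60, adjusted p = 0.11, and 0.72, adjusted p = 0.064). In the matched subset Gpr183 was at 0.52 ± 0.15 (SE, adjusted p = 0.048) and Dapl1 did not pass at 0.36 ± 0.15 (SE, adjusted p = 0.2).

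The costimulatory receptor genes Icos and Cd28 were higher in members than in the comparator, and Icos was not called against the remaining spleen cells. Icos, the inducible costimulator, was 121, 118 and 156 CPM in MitoNegative and 128 and 117 CPM in MitoPositive members, against 98.3, 69.98 and 54.1 and 73.1 and 65.4 CPM, and every member value lay above every comparator value. The difference was 0.81 ± 0.12 (SE, adjusted p = 0.00095), 0.78 ± 0.11 (SE, adjusted p = 3.5e-05) in the matched subset and 0.74 ± 0.14 (SE, adjusted p = 0.0025) in thinned cells, and just missed the threshold without donor 2 (0.79, adjusted p = 0.056). Cd28, the receptor for the main costimulatory ligands of T cells, was higher by 0.46 ± 0.08 (SE, adjusted p = 0.0035), did not overlap the comparator, and was at 0.41 ± 0.09 (SE, adjusted p = 0.0055) in the matched subset and 0.50 without donor 2 (adjusted p = 0.065).

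Sh2d1a, the adaptor of Slamf6, was 165, 154 and 166 CPM in MitoNegative and 243 and 218 CPM in MitoPositive members, against 152, 141 and 78.4 and 136 and 115 CPM. Members were above every comparator sample, by little within the MitoNegative samples of donors 1 and 2 and by more in the other 3. The difference was 0.63 ± 0.13 (SE, adjusted p = 0.0066) and 0.59 ± 0.11 (SE, adjusted p = 0.0014) in the matched subset, and was not called in the MitoNegative samples alone (0.39, adjusted p = 0.2) or among Trbv14-bearing cells (0.25, adjusted p = 0.53). The other SLAM genes Ly9 (-0.01 ± 0.09, adjusted p = 0.96), Slamf7 (0.05 ± 0.12, adjusted p = 0.87) and Cd48 (0.17 ± 0.12, adjusted p = 0.41) did not pass over all cells, and Cd48 passed in the matched subset at 0.35 ± 0.07 (SE, adjusted p = 0.0019). Of 9 SLAM genes, 1 was higher and 1 lower over all cells (median 0.05), and 2 higher and 0 lower of 8 in the matched subset (median 0.19). Among all genes tested, 6.84% were higher and 4.33% lower over all cells.

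Genes of exhausted T cells and their precursors gave no common direction, with 3 higher and 2 lower of 17 (median 0.13) and 1 and 1 of 13 in the matched subset (median 0.01). Entpd1, the ectoenzyme CD39 known from exhausted cells, was 5.61, 8.81 and 2.11 and 20.2 and 7.85 CPM in members against 25.9, 33.6 and 90.6 and 60.5 and 62.7 CPM. The groups did not overlap, and it was lower at -2.48 ± 0.31 (SE, adjusted p = 0.00027) over all cells, -1.79 ± 0.33 (SE, adjusted p = 0.0009) in the matched subset and -1.99 ± 0.41 (SE, adjusted p = 0.0069) in thinned cells. Nt5e, the enzyme CD73 that acts after CD39 on extracellular nucleotides, was higher at 0.62 ± 0.14 (SE, adjusted p = 0.011) and 0.95 ± 0.18 (SE, adjusted p = 0.0013), but did not pass without donor 1 (0.75, adjusted p = 0.054) or donor 2 (0.61, adjusted p = 0.18). Pdcd1, which encodes PD-1, was 28.5, 45.3 and 30.3 and 32.3 and 32.3 CPM in members against 27.3, 42 and 5.41 and 6.15 and 6.54 CPM. The gap lay in 3 of the 5 samples, and it did not pass at 1.05 ± 0.34 (SE, adjusted p = 0.064) over all cells or 0.85 ± 0.29 (SE, adjusted p = 0.092) in the matched subset. Xcl1, a chemokine of dendritic cell recruitment, had no common direction and changed sign without donor 2 (0.09 ± 0.51, adjusted p = 0.96, and -1.53 without donor 2).

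Most effector molecules outside the rule that passed were lower in members. Ccl5, a chemokine abundant in effector and memory cells, was 2005, 3091 and 1557 CPM in MitoNegative and 3551 and 3107 CPM in MitoPositive members, against 3479.8, 9039.9 and 4461 and 14457 and 12604 CPM. It was lower in each of the 5 samples, most in the MitoPositive arm. The difference was -1.54 ± 0.13 (SE, adjusted p = 3.2e-05) over all cells, -0.88 ± 0.10 (SE, adjusted p = 2.8e-06) in the matched subset, -1.48 ± 0.14 (SE, adjusted p = 3.5e-09) in thinned cells and -0.99 ± 0.08 (SE, adjusted p = 5.8e-08) against the remaining spleen cells.

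Gzmb, which encodes granzyme B, was 224, 96.5 and 45.1 and 70.1 and 42.7 CPM in members against 318, 159 and 149 and 387 and 244 CPM. It was lower in every sample, with the donor 1 MitoNegative members inside the comparator's range. The difference was -1.32 ± 0.25 (SE, adjusted p = 0.004), with -1.14 ± 0.21 (SE, adjusted p = 0.00078) in the matched subset, and it did not pass in the MitoNegative samples alone (-0.77, adjusted p = 0.067). Prf1, the pore-forming perforin, fell by 0.61 over all cells (adjusted p = 0.011), but stood at 0.15 ± 0.19 (SE, adjusted p = 0.76) in the matched subset, where the comparator is under the effector limit too. Fasl, a death ligand, was lower at -1.17 ± 0.19 (SE, adjusted p = 0.0014) over all cells but not without donor 2 (-1.15, adjusted p = 0.064), and was too low to test in the matched subset. Ifng did not pass in either form (-0.39 ± 0.12, adjusted p = 0.053, and -0.19 ± 0.19, adjusted p = 0.69 in the matched subset). Il2, the growth factor made by stem-like and helper cells, was higher at 1.33 ± 0.32 (SE, adjusted p = 0.019), from 12.1, 13.1 and 4.05 and 1.45 and 4.04 CPM in the comparator to 17.1, 20.1 and 24 and 12.1 and 13.9 CPM, and did not pass in the matched subset (1.04 ± 0.35, adjusted p = 0.088) or without donor 2 (1.42, adjusted p = 0.17). In all, 1 of 15 effector molecules was higher and 4 lower over all cells (median 0.05), and 1 and 2 of 12 in the matched subset (median 0.15). Among all genes tested, 6.84% were higher and 4.33% lower over all cells, so the count of higher ones is near that share.

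Genes tied to effector differentiation and migration went both ways. Of 23 tested, 7 were higher and 6 lower over all cells (median 0.13), and 9 were higher and 2 lower of 21 in the matched subset (median 0.28). S100a4, a calcium-binding protein of motile and activated T cells, was 3761, 3914 and 3500.5 CPM in MitoNegative and 1976 and 1806 CPM in MitoPositive members, against 2429.7, 2208 and 1165 and 1824 and 1223 CPM. It was higher in all 5 samples, by more in the MitoNegative arm, at 0.79 ± 0.13 (SE, adjusted p = 0.0021) over all cells, 0.77 ± 0.07 (SE, adjusted p = 2.7e-08) in the matched subset and 0.80 without donor 2 (adjusted p = 0.084). In the matched subset, Rora was higher at 1.06 ± 0.15 (SE, adjusted p = 2.3e-05), Lgals3 at 0.99 ± 0.12 (SE, adjusted p = 4.4e-06), Lgals1 at 0.49 ± 0.06 (SE, adjusted p = 1.3e-05) and Anxa2 at 0.49 ± 0.08 (SE, adjusted p = 0.00044). Over all cells, Lgals3 did not pass (0.57 ± 0.21, adjusted p = 0.1). Klrg1, the receptor that marks short-lived effector cells, was 0.22, 0.42 and 4.23 CPM in MitoNegative members and at 0 in both MitoPositive samples, against 9.39, 29.9 and 14.9 and 14.5 and 16.5 CPM in the comparator. It was lower in members of all 5 samples, and too low to test in the matched subset. Tbx21, the factor T-bet, was lower at -0.38 ± 0.11 (SE, adjusted p = 0.043) and did not pass in the matched subset (-0.35 ± 0.12, adjusted p = 0.12) or without donor 2 (-0.39, adjusted p = 0.32). Id2 did not pass over all cells (0.13 ± 0.11, adjusted p = 0.56) and was higher in the matched subset at 0.28 ± 0.07 (SE, adjusted p = 0.026).

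Most cytokine and killer cell lectin receptors that passed over all cells were lower in members. Il2ra, the high-affinity chain of the interleukin-2 receptor, was 4.95, 5.45 and 3.52 and 8.09 and 2.62 CPM in members against 17.9, 32.7 and 17.6 and 37.7 and 29.8 CPM. The groups did not overlap, and it was lower at -2.26 ± 0.23 (SE, adjusted p = 6.7e-05) over all cells and -2.21 ± 0.30 (SE, adjusted p = 1.5e-05) in the matched subset. Il12rb2 and Il4ra, receptor chains for interleukin-12 and interleukin-4, were lower too, at -1.25 ± 0.28 (SE, adjusted p = 0.0053) and -0.92 ± 0.24 (SE, adjusted p = 0.022) in the matched subset, and neither passed over all cells without donor 2 (-1.26, adjusted p = 0.059, and -1.01, adjusted p = 0.11). Il18r1 was the other way, at 0.45 ± 0.11 (SE, adjusted p = 0.019) over all cells and 0.48 ± 0.07 (SE, adjusted p = 0.0001) in the matched subset, without a call once donor 1 (0.48, adjusted p = 0.12) or donor 2 (0.60, adjusted p = 0.07) was left out. Il2rb, the shared chain of the receptors for interleukin-2 and interleukin-15, did not pass in either form (0.04 ± 0.07, adjusted p = 0.78, and -0.09 ± 0.08, adjusted p = 0.61 in the matched subset). Of 19 receptors, 2 were higher and 5 lower over all cells (median -0.12), and 2 and 4 in the matched subset (median -0.08).

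Klre1, an inhibitory lectin-like receptor of NK and some T cells, was 7.70, 5.03 and 2.82 CPM in MitoNegative and 5.39 and 6.97 CPM in MitoPositive members, against 30.4, 50.4 and 106.8 and 100.3 and 90.2 CPM. No member sample reached the lowest comparator sample. The difference was -3.09 ± 0.30 (SE, adjusted p = 5.8e-05) over all cells, -2.59 ± 0.31 (SE, adjusted p = 3.6e-06) in the matched subset and -4.00 ± 0.45 (SE, adjusted p = 3.6e-07) in thinned cells, and in the matched comparator Klre1 still ranged from 15.6 to 57.3 CPM. Of 8 lectin receptors tested, 1 was higher and 4 lower over all cells (median -0.64), and 1 and 1 of 5 in the matched subset (median -0.10). With Klre1, the genes Art2b, Ccl5, Coro2a, Entpd1, Fgl2, Lilr4b and Tent5a were lower and called in each of the 20 alternatives run.

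**Figure D2:**
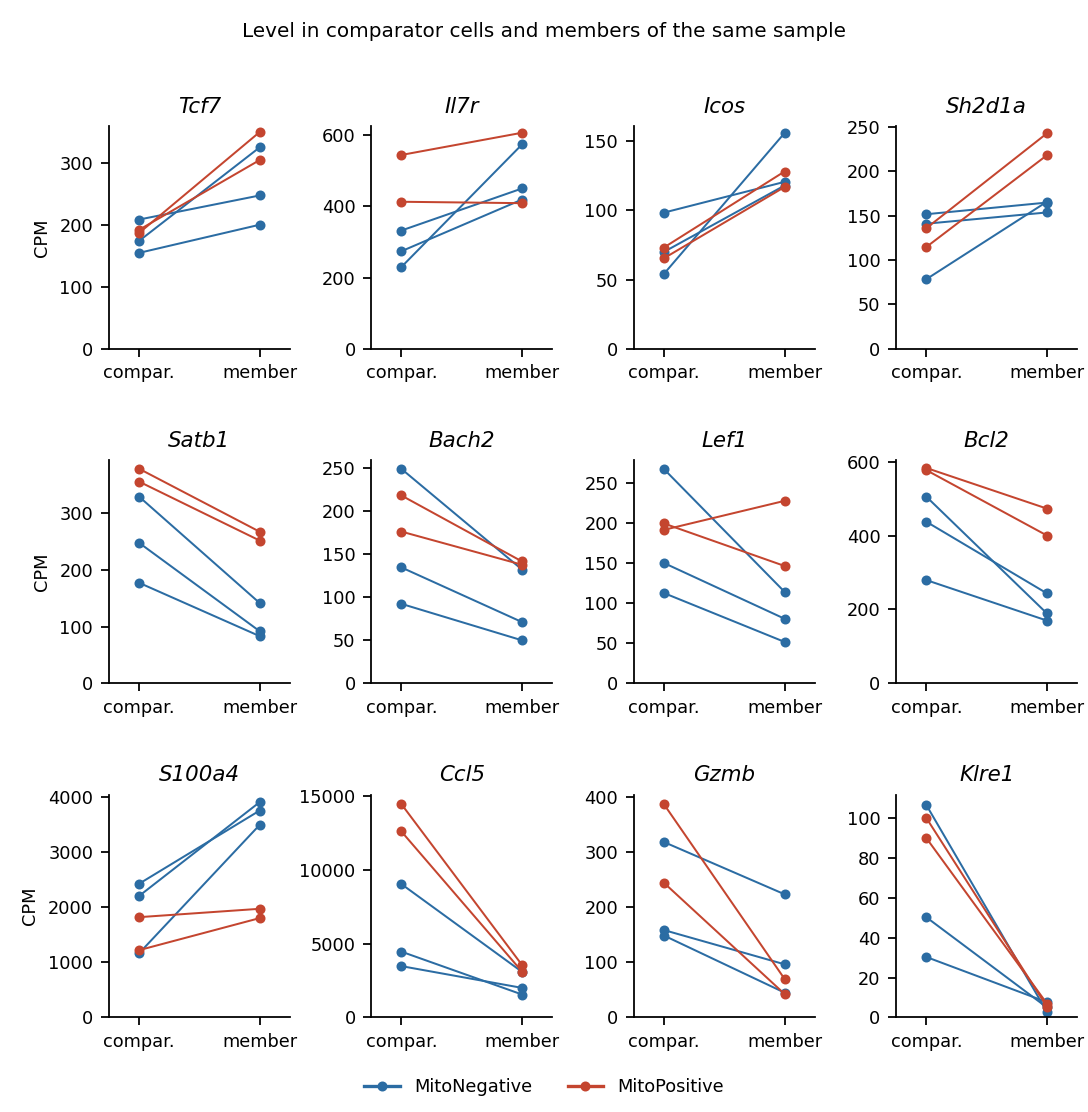
CPM (linear axes from 0) of 12 genes in comparator cells and members, with a line per sample in blue for MitoNegative and red for MitoPositive. Icos and Klre1 separate the 2 populations without overlap, whereas Lef1 rises in 1 MitoPositive sample and falls in the other 4 samples.

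Trdc, the constant region of the T cell receptor δ chain, was higher in members without the γ chain genes. It was 97, 162 and 96.6 CPM in MitoNegative and 179 and 237 CPM in MitoPositive members, against 76.4, 152 and 16.2 and 41.3 and 51.7 CPM, and higher in all 5 samples. The difference was 1.30 ± 0.29 (SE, adjusted p = 0.011) over all cells and 1.15 ± 0.16 (SE, adjusted p = 2.3e-05) in the matched subset, and did not pass without donor 2 (1.38, adjusted p = 0.058), in the MitoNegative samples alone (0.59, adjusted p = 0.26) or in thinned cells (0.55 ± 0.17, adjusted p = 0.14). Tcrg-C1 and Tcrg-C2 were lower in members over all cells, at -1.59 ± 0.42 (SE, adjusted p = 0.028) and -1.68 ± 0.37 (SE, adjusted p = 0.011), and too low to test in the matched subset, the first not without donor 1 (-1.51, adjusted p = 0.16) and the second not without donor 2 (-0.60, adjusted p = 0.64), and Tcrg-C4 did not pass (-0.41 ± 0.25, adjusted p = 0.34).

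Most β chain V segment RNA in members was of 1 segment in every sample. Trbv14 held 97.7%, 94.8% and 90.3% of Trbv segment UMIs in MitoNegative and 83.2% and 88.1% in MitoPositive members, against 98.2%, 82.0% and 54.1% and 71.4% and 55.9% in the comparator. Members were higher in 4 of 5 samples, with means of 90.8% ± 5.67 and 72.3% ± 18.5 (SD, n = 5). The difference of 18.5 points had p = 0.125 in a two-sided exact sign-flip permutation test, whose smallest possible p with 5 pairs is 0.0625, and 0.156 after Benjamini-Hochberg adjustment over the 5 sample-level values tested. Among Trbv14-bearing cells alone, 237 genes were called.

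Few interferon-stimulated genes were called, all in 1 direction. Over all cells 3 of 18 were higher and 0 lower (median 0.22), where 6.84% of all genes tested were higher. In the matched subset 2 of 17 were higher and 0 lower (median 0.29), where 2.6% of all genes tested were higher. Ifi27l2a led them, at 4000.2, 2586 and 2510.1 CPM in MitoNegative and 2792 and 2722 CPM in MitoPositive members, against 3015, 2049.8 and 1146 and 1311 and 1179.8 CPM. It was higher in all 5 samples, by 0.88 ± 0.11 (SE, adjusted p = 0.00035) over all cells, 0.80 ± 0.08 (SE, adjusted p = 5.4e-07) in the matched subset and 0.74 ± 0.09 (SE, adjusted p = 1.2e-06) in thinned cells. The other 2 called over all cells, Ifi206 and Ifi213, did not pass in the matched subset (0.24 ± 0.08, adjusted p = 0.11, and 0.24 ± 0.10, adjusted p = 0.21), and DESeq2 and thinned cells each called 1 of the list.

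Mitochondrial genes are given because the arms differ in mitochondrial transfer. None of the 13 mitochondrially encoded genes passed in either direction (edgeR and DESeq2, 0 at an unadjusted p under 0.05, median -0.06), and their share of UMIs was 2.05% ± 0.115 in members and 2.21% ± 0.271 in the comparator (SD, n = 5, exact sign-flip permutation p = 0.375, adjusted 0.375). Of 34 nuclear genes of oxidative phosphorylation, 17 were higher and 0 lower over all cells (median 0.24), 5 and 0 in the matched subset (median 0.12) and 0 in thinned cells (edgeR, 2 at an unadjusted p under 0.05, median 0.05). Cox6c, a subunit of complex IV, was at 0.40 ± 0.06 (SE, adjusted p = 0.00078) over all cells and 0.30 ± 0.06 (SE, adjusted p = 0.0031) in the matched subset, and just missed the threshold without donor 2 (0.41, adjusted p = 0.067). Glycolysis genes had 1 higher and 2 lower of 15 over all cells (median -0.02), and 1 and 0 of 13 in the matched subset (median 0.05). The shares over all genes tested were 6.84% higher and 4.33% lower over all cells.

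Most calls among the cell cycle genes, which led the higher genes over all cells, were lost once depth was matched. Over all cells 19 of 22 G2/M genes and 21 of 22 S phase genes were higher in members and 0 lower, with medians of 1.16 and 0.68. With equal numbers per UMI bin, 3 of 18 and 2 of 20 were called (medians 0.64 and 0.20), and in the matched subset 3 of 15 and 1 of 18 (medians 0.44 and -0.01). In thinned cells 0 of 16 and 0 of 18 were called by edgeR (4 and 1 at an unadjusted p under 0.05), and the medians were -0.31 and -0.13. Mki67 was 191, 123 and 190.3 CPM in MitoNegative and 48.5 and 48.8 CPM in MitoPositive members, against 126, 52.2 and 39.2 and 11.6 and 26.5 CPM in the comparator. It was higher in members of every sample at 1.22 ± 0.18 (SE, adjusted p = 0.00095), did not pass in the matched subset (0.44 ± 0.18, adjusted p = 0.2), and was lower without a call in thinned cells (-0.23 ± 0.20, adjusted p = 0.85).

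By cells, 34.5% of members and 11.0% of comparator cells had more than 1 UMI over 5 cycling genes, and 17.4% of 505 members and 13.7% of 3267 comparator cells once all cells held 3000 UMIs. Thinning also changed which cells the rule admits to each set, so the thinned values differ in more than depth. Of the named mitotic genes, Ccnb2 (cyclin B2) was higher in the matched subset at 1.05 ± 0.19 (SE, adjusted p = 0.001), Cdkn3 at 1.39 ± 0.31 (SE, adjusted p = 0.0061) and Cenpa at 0.95 ± 0.17 (SE, adjusted p = 0.0009), with Pclaf at 0.49 ± 0.13 (SE, adjusted p = 0.02) and Stmn1 at 0.45 ± 0.09 (SE, adjusted p = 0.0032). None of Ccnb2, Pclaf, Cenpa and Stmn1 passed in thinned cells.

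**Figure D3:**
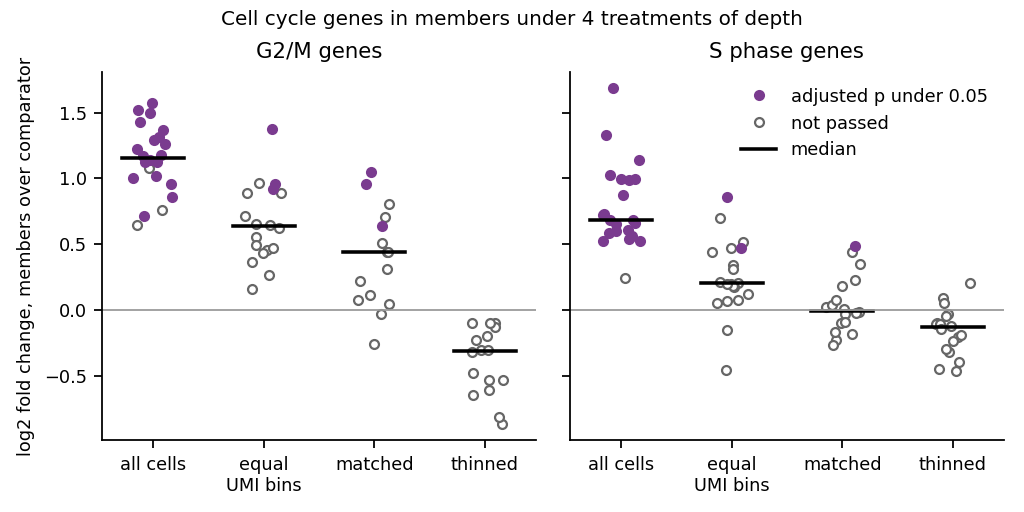
Log2 fold change of each G2/M and S phase gene in members over comparator cells under 4 treatments of depth, with filled points for an adjusted p under 0.05 and bars for medians. The G2/M median goes from 1.16 over all cells to 0.64, 0.44 and -0.31, and the S phase median from 0.68 to 0.20, -0.01 and -0.13.

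The second comparison asked how members of the MitoPositive arm differed from members of the MitoNegative arm. With 3 MitoNegative and 2 MitoPositive samples and donor as a block, 187 of 8876 genes were higher (2.11%) and 327 lower (3.68%) in MitoPositive members, 5.79% in all. The block leaves 1 residual degree of freedom, so the p-values lean on the spread pooled over genes. Where arms are said below not to overlap for a gene, this describes these few samples only. Such separation can arise by chance with so few samples, and its share over all genes tested is not given. Donor 3 entered with its MitoNegative sample alone, which the block fits exactly, so the arm contrast rests on donors 1 and 2. Leaving donor 3 out, among the alternatives below, therefore repeats nearly the same contrast. Without the block 48 genes were higher and 149 lower, and DESeq2 with the block called 12 and 12. Thinned cells gave 6 higher and 17 lower of 3173 genes tested, on MitoPositive sums of 22 and 55 cells. Members without the cycling cells gave 129 higher and 105 lower of 7898, where higher calls outnumber lower ones. Without donor 1 or without donor 2, 60 and 213 genes were called. These fits had no block and 1 MitoPositive sample, which is assumed to vary as the MitoNegative samples do. Among the 83 genes called under the naming rule, Bcl2, Satb1 and Ifitm1 were called in all 12 alternatives run, 1 of which changed no sum.

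Several quiescence and lymphoid homing genes were higher in MitoPositive members. In comparator cells, by the values given above, Satb1 and Bcl2 had the same order of arms without overlap, and Lef1 overlapped. The arm differences of Satb1 and Bcl2 were thus not particular to members. Satb1, whose member values are given above, did not overlap between arms and was higher by 1.61 ± 0.15 (SE, adjusted p = 7.4e-23), Bcl2 likewise by 1.14 ± 0.14 (SE, adjusted p = 1.4e-12), and Lef1 by 1.57 ± 0.16 (SE, adjusted p = 6.4e-19). Lef1 was called without the block, but not by DESeq2 (1.55, adjusted p = 0.84) or without donor 1 (0.72, adjusted p = 0.34).

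Ccr7, the receptor that brings T cells into lymph nodes, was 25.2, 35.7 and 40.9 against 60.6 and 71.5 CPM, without overlap, and higher by 1.17 ± 0.23 (SE, adjusted p = 2.4e-05), a call lost without donor 2 (1.05, adjusted p = 0.072). Bach2 was higher by 1.27 ± 0.17 (SE, adjusted p = 3.1e-11), Tcf7 by 0.59 ± 0.15 (SE, adjusted p = 0.002) and Klf3 by 0.79 ± 0.17 (SE, adjusted p = 0.00028). Without the block these 3 did not pass (Bach2 0.90, adjusted p = 0.099, Tcf7 0.43, adjusted p = 0.3, and Klf3 0.68, adjusted p = 0.073). In all, 7 of 14 stem and memory factors were higher and 1 lower (median 0.68, against 0.00 over all genes), and 4 of 15 homing and survival genes were higher and 1 lower (median 0.24). Without the block 3 of the 14 factors were higher and 1 lower, and DESeq2 called 3. The list also holds Id2, which is known from effector cells. The lower factor was Id2, at -0.59 ± 0.12 (SE, adjusted p = 9.9e-05), which was not called without donor 1 (-0.56, adjusted p = 0.93) or donor 2 (-0.56, adjusted p = 0.67).

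Markers of other T cell types moved with these genes. All 3 markers of γδ and innate-like T cells that could be tested, Trdc, Tcrg-C2 and Tcrg-C4, were higher in MitoPositive members (median 1.83), and the 10 markers summed to 111, 182 and 122 CPM in MitoNegative and 228 and 287 CPM in MitoPositive members. Of 4 markers of CD4 and regulatory T cells tested, Ctla4 and Ikzf2 were higher and 0 lower (median 0.33), whereas Cd4 and Foxp3, which define those cells, were too low to test. The sums of these 6 markers were 73.3, 112 and 158 against 133 and 129 CPM and overlapped between arms. Their part in the arm difference was not tested.

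Cell cycle genes were lower in MitoPositive members, with 21 of 22 G2/M genes (median -1.55) and 20 of 22 S phase genes (median -1.23) lower and 0 higher. Mki67 was 191, 123 and 190.3 CPM in MitoNegative and 48.5 and 48.8 CPM in MitoPositive members, and Cdk1, the kinase that drives mitosis, 102, 64.6 and 67.7 and 9.43 and 25.3 CPM. Neither overlapped between arms, and they were lower at -1.60 ± 0.19 (SE, adjusted p = 7.8e-15) and -2.07 ± 0.25 (SE, adjusted p = 6.3e-14). DESeq2 called 2 and 1 of these genes, and among Trbv14-bearing members edgeR called 20 and 20 of 22. By cells, 42.7%, 27.95% and 31.3% of MitoNegative and 16.7% and 13.2% of MitoPositive members were cycling. The same order held for all spleen cells, at 36.7%, 22.6% and 20.8% in MitoNegative and 11.6%, 7.29% and 18% in MitoPositive samples of donors 1, 2 and 3. The last value, from 50 cells, is close to the 20.8% of the MitoNegative sample of donor 3.

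Of 21 effector differentiation genes, 9 were lower in MitoPositive members and 0 higher (median -0.41). Without the block 5 of them were lower, and DESeq2 called 3. S100a4 was lower at -0.99 ± 0.09 (SE, adjusted p = 2.6e-25), with MitoPositive values of 1976 and 1806 CPM below all MitoNegative ones. Lgals3, a galectin of activated T cells, was 866, 796 and 773 CPM against 420.5 and 320.0 CPM, lower at -1.14 ± 0.13 (SE, adjusted p = 2.9e-16). Cxcr6, a chemokine receptor of tissue-resident and tumor-infiltrating cells, was 204, 147 and 134 against 84.9 and 68.9 CPM, lower at -1.14 ± 0.17 (SE, adjusted p = 7.5e-09). The arms did not overlap for any of these 3 genes, which with so few samples is a description and not a test. None was called once donor 2 and the block were left out (S100a4 -0.81, adjusted p = 0.091, Lgals3 -0.90, adjusted p = 0.15, and Cxcr6 -0.95, adjusted p = 0.22), and without donor 1 only Lgals3 was.

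Gzmb overlapped between arms and was lower at -1.41 ± 0.19 (SE, adjusted p = 1.5e-11) with the block but not without it (-1.20, adjusted p = 0.26). Gpr183 was lower at -1.01 ± 0.18 (SE, adjusted p = 2.5e-06) and Slamf7 by -0.89 ± 0.16 (SE, adjusted p = 2.8e-06), and neither passed without donor 2 (-1.12, adjusted p = 0.099, and -0.84, adjusted p = 0.34). Ccl5 went up by 0.45 ± 0.09 (SE, adjusted p = 4.6e-05), a call lost without the block (0.64, adjusted p = 0.16). Effector molecules in all had 1 higher and 2 lower of 15 (median -0.18), and 0 of 18 interferon genes and 0 of 15 glycolysis genes passed by edgeR or DESeq2 (2 and 3 at an unadjusted p under 0.05 in edgeR). Ifitm1, an interferon-induced gene outside that list, was lower in MitoPositive members, at 1843, 1024 and 1157 against 418 and 351 CPM.

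The 10 genes with the largest rise (1.69 to 2.39) included Abcb9, Art2b, B630019A10Rik, Tcrg-C4, Nr4a1, Tent5a, Setbp1, Egr1 and Tmem108, and the 10 with the largest fall were Aspm, Anln, Cenpf, Spc25, Cdk1, Cd74, Cenpe, Nusap1, Hist1h1b and Ccna2 (-3.29 to -1.95). Nr4a1 and Egr1 are immediate early genes of T cell receptor signalling and of handling stress, and 4 of 9 genes of the dissociation stress list were higher and 0 lower. Their part in the arm difference was not tested. Art2b, an ADP-ribosyltransferase of T cells, was 3.08, 11.7 and 2.82 against 32.3 and 20.1 CPM, Tent5a 9.57, 5.45 and 8.46 against 22.9 and 27.9 CPM and Tcrg-C4 8.36, 8.39 and 19 against 31 and 27 CPM. The arms did not overlap for these 3 genes. Among the mitochondrially encoded genes, 1 of 13 was higher (median 0.15), and among 34 oxidative phosphorylation genes 1 was lower (median -0.17).

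**Figure D4:**
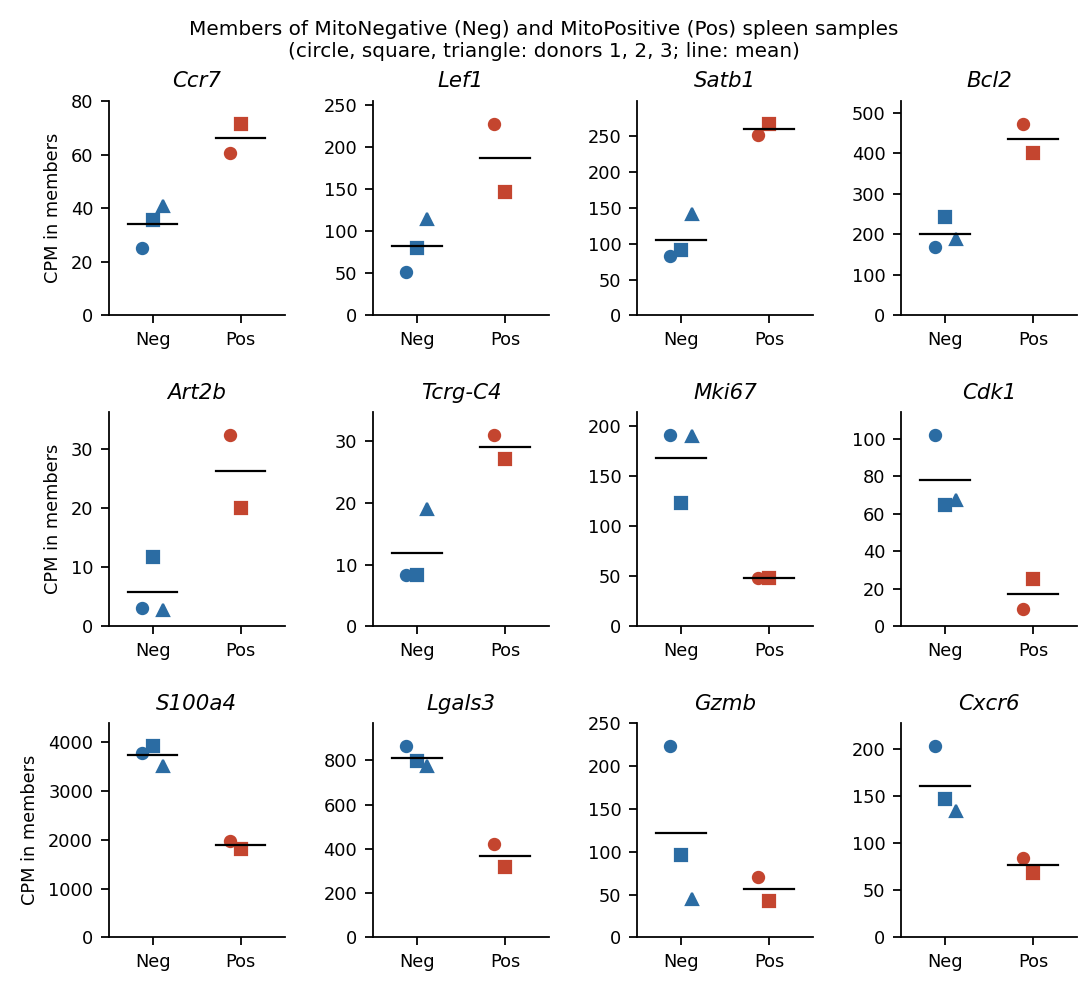
CPM in members of each spleen sample (linear axes from 0), MitoNegative in blue and MitoPositive in red, with lines at arm means. Ccr7, Lef1, Satb1 and Bcl2 are higher and Mki67, Cdk1, S100a4, Lgals3 and Cxcr6 lower in both MitoPositive samples, whereas Gzmb overlaps.

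The third comparison asked whether the difference between members and comparator cells itself depended on the arm, by an interaction term in 1 fit of both populations. Of 10083 genes, 7 (0.0694%) passed: members stood higher against their comparator in the MitoPositive than in the MitoNegative arm for 3 genes (0.0298%), Egr1 and Camk2d among them, and lower for Ifitm1, Ifitm2, Cxcr6 and Ccr2 (0.0397%). Ifitm1, an interferon-induced membrane protein, was 1843, 1024 and 1157 CPM in MitoNegative members against 1316, 708 and 372 CPM in the comparator, and 418 and 351 against 2145 and 823 CPM in the MitoPositive arm. Members were thus higher in each MitoNegative and lower in each MitoPositive sample. The UMI match of the comparator called 0 genes (edgeR, 626 at an unadjusted p under 0.05), but it left the MitoNegative comparator whole and so matched the MitoPositive arm alone. With equal numbers of both populations per UMI bin, added after seeing the data, 5 genes passed, 4 of them among the 7, with Cxcr6, Ifitm1 and Ifitm2. In the matched subset 22 passed, all 7 among them.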

How the data were processed

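Per the file headers, the authors deposited UMI counts per gene and hashtag in a matrix for each of 4 libraries. The counts were not normalised and not divided by sample. The depth given with each population is a median of UMIs per cell, except the total of 30099 for 4 MitoPositive members of donor 3. Per the labels' protocols, the libraries were made with a 10x 3′ kit (v3.1), and the build mm10 (GRCm38), Cell Ranger 7.0.0 and Seurat 4.0.5 are named in the submitters' processing notes. Deposited barcodes with at least 500 genes and under 15% mitochondrial UMIs were kept if the top hashtag reached 10 UMIs and stood 3-fold or more above the next one, which removes barcodes with a pair of hashtags; no other doublet caller was run. Libraries were checked for shared barcodes: 28 of 18064 barcodes occur in more than 1 library, 10 of them members. The d0 hashtag maps in the labels conflict, and the deposited hashtag list was used, which bears only on the culture shares.

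The members and the 28 gene lists were chosen with earlier results of these data known. Counts were summed per sample and population (at least 20 cells), passed through filterByExpr and TMM scaling, and analysed in edgeR 4.0.16 (R 4.3.3) by its quasi-likelihood test with Benjamini-Hochberg adjustment at 0.05, with sample as a block for members against comparator cells and donor as a block between arms. DESeq2 1.42.0 was an alternative, and sample-level values used exact sign-flip permutation. SE of log2 fold changes come from the F statistic. Genes named are the 15 per direction (10 between arms) with the largest change among those called, with the same sign in every sample and a mean of at least 20 CPM in the higher population, without receptor V segments and rule genes, up to 4 per list, and a fixed set of T cell genes; a few genes that the rule names are not reported here. A sample's 2 populations are pairs by construction, and deviations from the population means correlated at 0.052 to 0.578 within samples and at -0.392 to 0.185 between them. Between arms, members of the same donor correlated at -0.587 and -0.276, and members of different donors at -0.437 to -0.343. With 2 pairs of the same donor, and deviations taken from a mean over both arms, these values can neither show nor exclude pairing by donor. The donor pairs the arms by design, because the T cells came from the same mouse. On simulated data for members against comparator cells (9188 genes), 85.7% of genes changed 2-fold and 100% of those changed 4-fold were recovered, with 13 false calls. Alternatives covered depth (nearest-UMI matching, equal UMI bins of 0.25 on the log2 scale, thinning), cell identity, filters, scaling, tool, block and each donor left out. NumPy 2.4.6, SciPy 1.17.1 and pandas 2.3.3 were used.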

Additional observations from a re-analysis of the deposited data

Results flagged for a closer look

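The difference between members and comparator cells differed between the arms, by the interaction term, for 7 genes, of which 6 are given here. Values are log2 differences, MitoPositive minus MitoNegative. Egr1, an immediate early gene, had 3.07 and Camk2d, a calcium-dependent kinase, had 0.92. On the other side stood Ccr2 at -1.15 and Cxcr6 at -1.44, both chemokine receptors, and Ifitm2 at -1.86 and Ifitm1 at -2.63, both interferon-induced membrane proteins. All 7 were called again without donor 3, 6 of them without donor 1 and 3 without donor 2. The last 2 of these fits hold 1 MitoPositive sample. The UMI match called 0 (edgeR), but matched the MitoPositive arm alone. With equal UMI bins in both arms 4 of the 7 were called, and all 7 in the matched subset.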

How the results depend on the processing

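The count of 1025 genes called between members and comparator cells became 592 with a comparator matched on UMIs, 255 with equal UMI bins, 355 in the matched subset and 62 in thinned cells. In the same order, 569, 229, 217 and 55 of the 1025 were called again in the same direction. Fewer cells entered these fits. The planned UMI match used every comparator cell of the MitoNegative samples and left them at medians of 4642 to 5904 UMIs against 6359.5 to 8127, so equal bins were added after seeing the data. Trbv14-bearing cells gave 237, cells without markers of other types 486 (61.9% of members carry such a marker), MitoNegative samples alone 394, no count filter 1777 and DESeq2 591. Leaving out 1 donor gave 206 to 1061. Without the replicate block, which pairs the populations of a sample, 186 were called. DESeq2 lost 11 of 112 named calls and the fit without the block 61. In the remaining settings the count was within 1.5 times.

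In thinned cells Hist1h2ae (-0.14), Hist1h2ap (-0.08), Pclaf (-0.39), Hist1h1b (-0.40), Ccna2 (-0.10), Ccnb2 (-0.32), Asf1b (-0.26), Rrm2 (-0.32), Tyms (-0.11) and Mki67 (-0.23) turned, as did Hist1h2ae (-0.04) and Hist1h2ap (-0.36) without cycling cells, Pmaip1 (0.00), Ifi206 (-0.06) and Cd8a (-0.01) in Trbv14-bearing cells, Xcl1 (-1.53 without donor 2, 1.31 without donor 1) and Prf1 (0.15) in the matched subset. The cause was not tested.

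Between arms, the count of 514 was 197 without the replicate block, 23 in thinned cells (6 higher, 17 lower), 234 without cycling cells (129 higher, 105 lower), 24 with DESeq2 and 60 to 449 with 1 donor left out (60 without donor 1, 213 without donor 2). The fits without donor 1 or 2 dropped the block, which leaves no residual degrees of freedom there. The fit without donor 3 repeats nearly the same contrast, since donor 3 entered with its MitoNegative sample alone. In thinned cells 3173 genes were tested, on MitoPositive sums of 22 and 55 cells. The 7 genes of the interaction became 0 with the UMI match, which reached the MitoPositive arm alone, 5 with equal UMI bins, 22 in the matched subset and 8 to 26 with 1 donor left out.

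The share of members was 9.45% and 2.32% in thinned cells and 30.3% of MitoNegative cells without the effector limit. With 1 donor left out it was 27.3% to 29.2% and 7.63% to 8.18%. The S phase difference of 736 CPM became 45.2 in thinned cells, 89.7 without cycling cells and 266 with equal bins. The G2/M difference of 710 CPM became -60.3 in thinned cells and -2.38 without cycling cells, and 407 with equal bins. The mitochondrial difference of -0.164 points became 0.217 in thinned cells and 0.0981 with equal bins, and the ribosomal one of 0.806 became -0.265 with matched UMIs, -0.26 under the effector limit, -1.09 in thinned cells and -0.538 with equal bins. With 1 donor left out, the Trbv14 difference was 14.1 to 27.1 points, S phase 653 to 862 CPM, G2/M 542 to 851 CPM, mitochondrial -0.243 to -0.0333 points and ribosomal 0.505 to 1.02 points. The depth of 4 MitoPositive members of donor 3 allowed no sum.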

Other observations

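Ribosomal protein genes held 21.7%, 24.6% and 21.3% of UMIs in MitoNegative and 26.1% and 27.8% in MitoPositive members, against 21.02%, 23.9% and 21.3% and 24.3% and 26.9% in the comparator. Members were higher in 4 of 5 samples (exact sign-flip permutation p = 0.125, adjusted 0.156), and both MitoPositive samples were above all MitoNegative ones. Cd9, a tetraspanin, and Fut7, the fucosyltransferase that builds selectin ligands, were among the leading genes of the matched subset.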
